A study of Mus musculus with 8 samples.

Results

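The immunoglobulin heavy chain locus lies at one end of mouse chromosome 12. Its accessible regions were taken by position alone, as the regions of the authors' deposited tables whose centre lay between 113.2 and 116.01 Mb (GRCm38). They were 185 of 54239 regions in the EBF1-dTAG_C table and 203 of 55193 in the EBF1-dTAG_N table. Merged where they overlapped, they made 222 regions of 66082. Chromatin accessibility was measured by ATAC-seq, in which Tn5 transposase tags open DNA, in mouse pro-B cells transformed by Abelson murine leukaemia virus. The study compared cells of each line after 6 h with 0.5 uM dTAG-13, a compound that directs tagged proteins to degradation, against 6 h with its solvent DMSO. Both lines, EBF1-dTAG_C and EBF1-dTAG_N, carry exogenous modified EBF1 in place of the endogenous gene in all groups, controls included. There were 2 libraries in each of 4 groups, described by the series as biological replicates. Both libraries of a group come from the same line. The loss of EBF1 protein was not measured by these files.

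In pro-B cells the heavy chain gene is assembled from V, D and J segments, which RAG proteins cut and join. The D and J segments are joined first and a V segment follows, so that the distal V segments have to be brought near over a long stretch of chromatin. The V segments are read toward the constant genes, which places the upstream side of each V segment at higher coordinates. EBF1 is a DNA-binding factor needed to commit progenitors to the B cell fate, and Pax5, which EBF1 induces, is known for the use of distal V segments. Distal V segments have among them Pax5-activated intergenic repeat (PAIR) elements, described upstream of VH3609 (Ighv8) family segments, which bind Pax5, E2A and CTCF and give antisense transcripts. The files do not annotate which regions are such elements.

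The locus was described in 4 parts. The 3' regulatory and constant part (113.2 to 113.427 Mb) held 19 regions in the EBF1-dTAG_C table and 20 in the EBF1-dTAG_N table. The D and J part (113.427 to 113.527 Mb) held 7 and 6. The proximal V part (113.527 Mb to the base before Ighv1-1) held 30 and 31, and the distal V part, from Ighv1-1 to 116.01 Mb, held 129 and 146. RefSeq lists 121 V segments and 63 V segment pseudogenes in the locus, with spans but without strand, exons or introns. Region sequences were not analysed here, but 3 regions of the distal V part cover the RefSeq start of a long non-coding RNA gene. These starts are shown because all 3 lie in regions that became less accessible by at least one line's test and because they resemble each other. Each run covers 250 bases before to 50 after the start (RefSeq, GRCm38.p6, + strand, which is opposite to the V segments), at chr12:115262401-115262700 for Gm30948, chr12:115407364-115407663 for Gm30996 and chr12:115703580-115703879 for Gm40900. Capitals mark the E-box CAGGTG, a motif of E proteins such as E2A, and CCAGCAGGG, a part of the CTCF core motif, each on either strand.
Gm30948: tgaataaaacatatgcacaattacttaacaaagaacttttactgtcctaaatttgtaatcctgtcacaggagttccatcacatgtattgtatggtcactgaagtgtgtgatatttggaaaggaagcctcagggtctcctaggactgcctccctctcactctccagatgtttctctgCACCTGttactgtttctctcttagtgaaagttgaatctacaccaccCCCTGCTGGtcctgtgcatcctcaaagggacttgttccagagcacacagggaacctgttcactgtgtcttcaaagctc
Gm30996: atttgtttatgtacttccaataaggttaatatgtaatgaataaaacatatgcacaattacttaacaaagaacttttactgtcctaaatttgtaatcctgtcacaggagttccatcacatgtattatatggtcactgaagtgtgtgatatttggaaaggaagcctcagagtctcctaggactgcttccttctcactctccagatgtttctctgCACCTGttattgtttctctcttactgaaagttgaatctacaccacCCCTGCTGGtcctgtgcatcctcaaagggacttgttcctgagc
Gm40900: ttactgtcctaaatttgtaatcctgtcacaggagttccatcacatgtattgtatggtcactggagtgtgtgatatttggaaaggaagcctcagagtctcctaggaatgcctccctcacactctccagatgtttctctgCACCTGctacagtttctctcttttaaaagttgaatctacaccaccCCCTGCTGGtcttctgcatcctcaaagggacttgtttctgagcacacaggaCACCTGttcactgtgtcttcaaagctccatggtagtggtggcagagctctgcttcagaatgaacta

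The 3 starts were copies of one sequence. Gm30948 and Gm30996 were 97.0% identical over 265 aligned columns, Gm30948 and Gm40900 94.3% over 262, and Gm30996 and Gm40900 93.0% over 227. Each held 1 match to CCAGCAGGG, found in 0.919% of 32851 mouse promoters of the same length. This motif was not on the planned list, and matches in copies of one sequence are not separate observations. The recombination heptamer CACAGTG, not marked above, occurred 1 time in Gm30948, 1 time in Gm40900 and 0 times in Gm30996 (6.81% of promoters). The E-box CAGGTG, which 20.2% of promoters hold, occurred 1 time in Gm30948, 1 time in Gm30996 and 2 times in Gm40900. None of the 3 runs held the palindromic EBF1 motif (0.904% of promoters) or the octamer ATGCAAAT (1.74%). No match means only that these letters are not in this window. Because the copies are near-identical, reads could be shared between them by the alignment, and their values are less certain than those of unique regions.

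Depth in reads is unknown, and the tables hold no values per library. Each library's own peak list gave the fold enrichment of a peak over the local background of that library, and these values are the authors' and describe only. The lists held 34202 to 39721 peaks after dTAG-13 and 40166 to 42139 with DMSO. As a check of the labelled cell type, 8 of 9 B lineage marker genes had a peak within 1 kb in all 8 lists. This held for 1 of 5 T cell markers, 0 of 5 myeloid markers and 1 of 4 erythroid markers, while 4 of the 5 myeloid, 2 of the 5 T cell and 0 of the 4 erythroid markers had no peak in any list. Of the erythroid markers Klf1 had a peak in 8 lists, Hbb-bt in 7, Epor in 5 and Gata1 in 4, and the part of such cells in the results was not tested. Rag1 was the B lineage exception, with a peak in 4 lists.

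After dTAG-13 the locus lost accessibility at scattered regions of its V part and at 1 region beyond Igha, while most of its regions passed no test. In EBF1-dTAG_C, 18 of 185 regions fell (9.73%), against 6.62% of all regions of the authors' deposited table, and 0 rose, against 0.308%. At an unadjusted p under 0.05, 27 fell (14.6%, against 11.6% of all regions) and 11 rose (5.95%, against 5.20%) in this edgeR table. In EBF1-dTAG_N, 36 of 203 fell (17.7%), against 18.5% of all regions of the authors' deposited table, and 29 rose (14.3%), against 18.8%. In EBF1-dTAG_N the share that fell was thus close to that of the whole table. Fewer cells with an open region and less opening per cell cannot be told apart in these bulk libraries. The median log2 fold change over the locus was 0.16 in EBF1-dTAG_C and 0.13 in EBF1-dTAG_N in the authors' deposited tables, against 0.09 and 0.17 over all regions. Rises in EBF1-dTAG_N depend on the scale. With folds centred on the median of its table, 11 regions rose (5.42%, against 7.98% of all regions) and 44 fell (21.7%, against 20.8%). In EBF1-dTAG_C 19 fell with centred folds (10.3%, against 7.39% of all regions) and 0 rose, against 0.162%. The EBF1-dTAG_N table pools its spread over regions, so p-values of the lines cannot be set side by side. With the EBF1-dTAG_C degrees of freedom applied, its F values gave 34 falls and 15 rises among the 203 regions of the locus. With this setting 16.3% of all regions of that table fell and 12.4% rose.

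By part, the V parts held most regions and most falls. In the distal V part 13 of 129 regions fell in EBF1-dTAG_C (10.1%, against 6.62% of all regions), and 25 of 146 fell in EBF1-dTAG_N (17.1%, against 18.5%) and 18 rose (12.3%, against 18.8%), in the authors' deposited tables. In the proximal V part 4 of 30 fell in EBF1-dTAG_C (13.3%), and 10 of 31 fell in EBF1-dTAG_N (32.3%). In EBF1-dTAG_N 3 proximal V regions rose (9.68%, against 18.8% of all regions), and 0 rose with centred folds. The D and J part had no call among 7 regions in EBF1-dTAG_C and 3 rises among 6 in EBF1-dTAG_N (50%, against 18.8% of all regions). The 3' regulatory and constant part had 1 fall in each line (5.26% of its regions in EBF1-dTAG_C and 5% in EBF1-dTAG_N). It had 5 rises among 20 regions in EBF1-dTAG_N (25%, against 18.8%). For comparison, the kappa light chain locus had 50 falls among 214 regions in EBF1-dTAG_C (23.4%, against 6.62% of all regions) in the authors' deposited tables. In EBF1-dTAG_N it had 103 among 244 (42.2%, against 18.5%). The 1 Mb below the heavy chain locus had 4 falls among 77 (5.19%) in EBF1-dTAG_C and 19 among 76 (25%) in EBF1-dTAG_N. The 1 Mb above it had 0 falls among 17 in EBF1-dTAG_C and 1 among 18 (5.56%) in EBF1-dTAG_N.

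**Figure D1:**
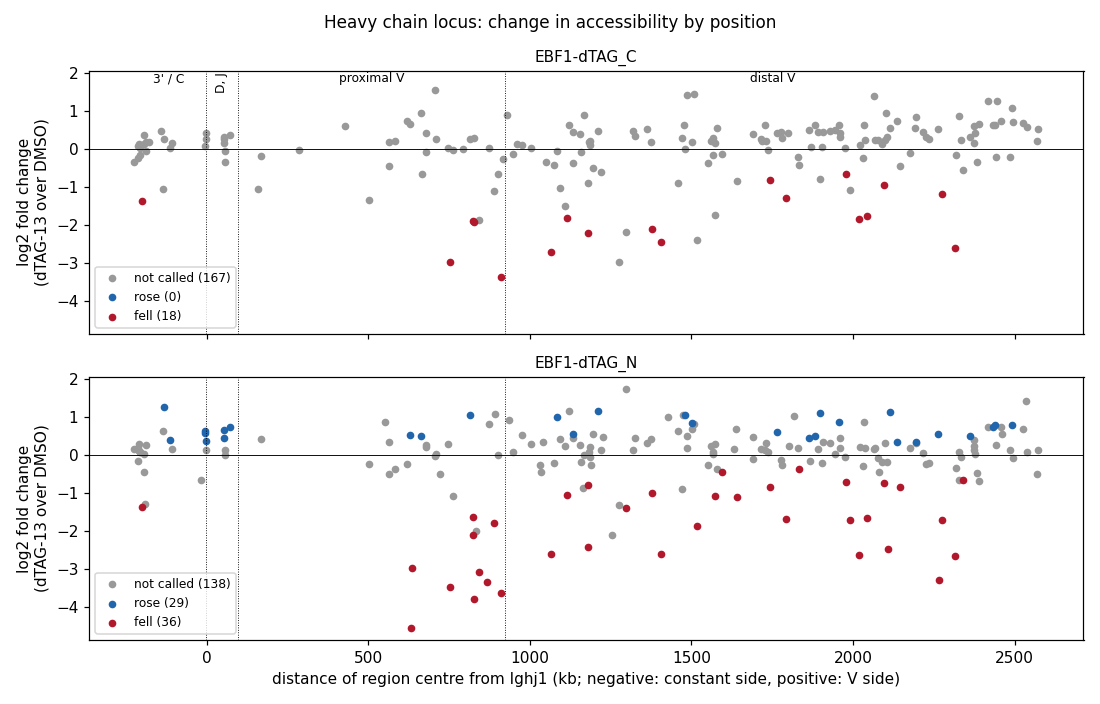
Log2 fold change (dTAG-13 over DMSO) of each region of the authors' deposited tables against the distance of its centre from Ighj1 in kb, EBF1-dTAG_C above and EBF1-dTAG_N below, with dotted lines between the 4 parts. Red points fell (18 and 36), blue points rose (0 and 29) and grey points were not called; most points, red ones included, lie in the V parts, on the right.

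The 3' regulatory part follows the constant genes and holds the enhancers that act on heavy chain transcription and class switching. One region fell there in both lines, at chromosome 12, 113228164 to 113228593, 27.6 kb beyond Igha, the IgA constant gene. Its peak had fold enrichments of 15.03 and 13.7 in the EBF1-dTAG_C dTAG-13 libraries, against 23.2 and 24.3 with DMSO. In EBF1-dTAG_N the enrichments were 7.8 and 10.7 after dTAG-13, against 24.3 and 24.0 with DMSO. Every dTAG-13 library lay below every DMSO library. The log2 fold change was -1.36 in EBF1-dTAG_C (approximate SE 0.18, adjusted p 0.000549) and -1.36 in EBF1-dTAG_N (approximate SE 0.15, adjusted p 1.01e-17) in the authors' deposited edgeR tables. Its neighbours on either side, at 113222793 to 113223116 and 113234449 to 113234700, had log2 fold changes of -0.16 (adjusted p 0.66) and 0.36 (adjusted p 0.748) in the authors' deposited table of EBF1-dTAG_C. The other regions of this part ranged from -1.06 to 0.47 on the log2 scale there, with 0 called.

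The most abundant region of this part lay 5.1 kb from Ighg1, an IgG constant gene, at 113320998 to 113321450. Its enrichments were 26.5 and 30.8 after dTAG-13, against 29.8 and 30.4 with DMSO, in EBF1-dTAG_C. In EBF1-dTAG_N they were 26.8 and 28.6, against 29.7 and 28.7. The groups overlapped in EBF1-dTAG_C, and in EBF1-dTAG_N they lay apart by little. The log2 fold change was 0.15 (adjusted p 0.669) in EBF1-dTAG_C and 0.16 (adjusted p 0.129) in EBF1-dTAG_N in the authors' deposited tables. On the far side of Ighm, the IgM constant gene, the EBF1-dTAG_C table has a single region at 113424394 to 113425595, with a log2 fold change of 0.06 (adjusted p 0.888) in the authors' deposited table. The EBF1-dTAG_N table has 2 regions there, which rose by log2 fold changes of 0.64 (adjusted p 0.0012) and 0.58 (adjusted p 6.13e-06) in the authors' deposited table and were still called with centred folds. Their peaks were weak, at most 3.7-fold enriched in any library.

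The J segments and the intron between them and Ighm, where the intronic enhancer lies, had no fall called in either line. The most abundant region of the D and J part, 0.832 kb from Ighj4 at 113427313 to 113427682, had enrichments of 9.9 and 10.7 after dTAG-13, against 9.9 and 10.6 with DMSO, in EBF1-dTAG_C. In EBF1-dTAG_N it had 10.97 and 11.9 after dTAG-13, against 14.2 and 13.02 with DMSO, and here the groups did not overlap. Its log2 fold change was 0.41 (adjusted p 0.22) in EBF1-dTAG_C and 0.13 (adjusted p 0.409) in EBF1-dTAG_N in the authors' deposited tables. In the same intron a region 1.5 kb from Ighj4 rose in EBF1-dTAG_N (log2 fold change 0.37, adjusted p 0.0326), which was lost with centred folds, and had 0.26 (adjusted p 0.57) in EBF1-dTAG_C in the authors' deposited tables. The next member on the V side lay 54.5 kb away. In between stood 9 D segments that no region of either table overlapped, the last of them Ighd1-1, beside that next member.

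At the V-side end of this run of D segments, 2 regions lay beside Ighd1-1, and 1 more D segment lay farther toward the V side. The nearer one, 0.125 kb away in the EBF1-dTAG_C table, had a log2 fold change of 0.14 (adjusted p 0.845), and its EBF1-dTAG_N counterpart rose by 0.43 (adjusted p 0.0288), in the authors' deposited tables. Its enrichments were 6.4 and 5.3, against 7.3 and 8.0 with DMSO, in EBF1-dTAG_C, and 6.0 and 8.1, against 5.8 and 6.8, in EBF1-dTAG_N. The other rises of the D and J part in the EBF1-dTAG_N table were 0.66 (adjusted p 0.0346), 0.842 kb from Ighd1-1, and 0.73 (adjusted p 0.0377), 11.2 kb from Adam6b, as log2 fold changes of the authors' deposited table. None of these 3 rises passed with centred folds or with the EBF1-dTAG_C degrees of freedom applied. Of the remaining members, those 1.684 and 2.976 kb from Ighd1-1 in the EBF1-dTAG_C table had a peak in few libraries. The region 1.56 kb from Adam6b, a sperm membrane gene that lies among the heavy chain segments, had no peak in either dTAG-13 list of EBF1-dTAG_C, against 6.1 and 12.2 with DMSO. In EBF1-dTAG_N it had 7.3 in one dTAG-13 library and no peak in the other, against 12.3 and 7.6 with DMSO. Its log2 fold change was -0.35 (adjusted p 0.726) in EBF1-dTAG_C and -0.01 (adjusted p 0.978) in EBF1-dTAG_N in the authors' deposited tables.

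The proximal V part was sparse. Its longest stretches without a member spanned 142 kb, with 8 V segments inside, and 119 kb, with 6. A region lay at 13 of its 41 V segments in EBF1-dTAG_C and at 10 of 41 in EBF1-dTAG_N, with a margin of 250 bp. No region between its D side and Ighv14-3 was called in either line. The proximal V region with the smallest adjusted p in both lines lay 5.8 kb on the upstream side of Ighv14-4, a V segment, at 114182631 to 114183104. Its peak had enrichments of 4.8 and 7.2 in the EBF1-dTAG_C dTAG-13 libraries, against 25.5 and 25.4 with DMSO. In EBF1-dTAG_N it had 6.7 and 6.6, against 27.1 and 27.3. The groups were far apart in both lines. The log2 fold change was -2.97 in EBF1-dTAG_C (7.85-fold lower, approximate SE 0.23, adjusted p 1.57e-05) and -3.48 in EBF1-dTAG_N (11.2-fold lower, approximate SE 0.15, adjusted p 7.6e-124) in the authors' deposited tables. No other member had a smaller adjusted p in either table.

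Other falls of the proximal V part lay farther toward the distal side. A region 0.598 kb from Ighv3-4, at 114252715 to 114253019, had an enrichment of 5.8 in one EBF1-dTAG_C dTAG-13 library and no peak in the other, against 13.6 and 21.4 with DMSO. In EBF1-dTAG_N it had 6.4 and 9.7, against 20.7 and 21.5. Its log2 fold change was -1.92 (adjusted p 0.0211) in EBF1-dTAG_C and -2.11 (adjusted p 4.29e-21) in EBF1-dTAG_N in the authors' deposited tables. Beside it, a region at 114256348 to 114256577 fell in EBF1-dTAG_C (log2 fold change -1.94, adjusted p 0.0484) and one at 114256735 to 114256973 fell in EBF1-dTAG_N (-3.80, adjusted p 6.15e-10) in the authors' deposited tables. The intervals do not overlap, each had a peak in only 1 library of its line, a DMSO library, and each is thus thinly supported. A region 0.761 kb from Ighv5-21, a V pseudogene, fell in EBF1-dTAG_N (log2 fold change -1.80, adjusted p 1.22e-11) and had -1.11 (adjusted p 0.137) in EBF1-dTAG_C in the authors' deposited tables. A region 5.6 kb from Ighv13-1 fell in EBF1-dTAG_N (log2 fold change -3.08, adjusted p 7.47e-14 in the authors' deposited table), with no peak after dTAG-13, against 11.4 and 13.3 with DMSO. The region 6.9 kb upstream of Ighv8-1, at 114340004 to 114340266, had no peak in any dTAG-13 list. With DMSO its enrichments were 8.2 and 5.3 in EBF1-dTAG_C, and those of EBF1-dTAG_N were 11.8 and 8.6. Its log2 fold change was -3.37 (adjusted p 0.0306) in EBF1-dTAG_C and -3.65 (adjusted p 2.18e-10) in EBF1-dTAG_N in the authors' deposited tables. The lowest fold of the locus, -4.56 in EBF1-dTAG_N (approximate SE 0.79, adjusted p 9.23e-08), belonged to a region 2.9 kb from Ighv14-3 with a peak in 1 library only, at a mean abundance of 1.19 log2 CPM in the authors' deposited table.

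The distal V part was more densely accessible, with a region at 44 of 80 V segments in EBF1-dTAG_C and at 50 of 80 in EBF1-dTAG_N. At its V segment pseudogenes this was 7 of 39 and 9 of 39. The region of highest mean abundance in the locus lay at the segment Ighv8-6, at 115165342 to 115165904. Its enrichments were 23.5 and 26.2 after dTAG-13, against 28.8 and 23.9 with DMSO, in EBF1-dTAG_C, and 22.9 and 24.7, against 25.1 and 22.8, in EBF1-dTAG_N. The groups overlapped in both lines, and the log2 fold change was -0.04 (adjusted p 0.914) in EBF1-dTAG_C and 0.07 (adjusted p 0.414) in EBF1-dTAG_N in the authors' deposited tables.

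The deepest loss near the start of the distal V part was 2.0 kb from Ighv10-2, a V pseudogene, at 114493560 to 114494035. It had enrichments of 7.6 and 6.4 after dTAG-13, against 26.5 and 27.7 with DMSO, in EBF1-dTAG_C, and 8.9 and 9.2, against 28.4 and 27.5, in EBF1-dTAG_N. The log2 fold change was -2.73 (6.64-fold lower, adjusted p 3.02e-05) in EBF1-dTAG_C and -2.61 (6.12-fold lower, adjusted p 4.15e-86) in EBF1-dTAG_N in the authors' deposited tables. A strong region 1.8 kb from Ighv10-4, at 114544901 to 114545423, fell but stayed well enriched, at 19.95 and 14.9, against 31.1 and 28.3 with DMSO, in EBF1-dTAG_C. In EBF1-dTAG_N it had 21.6 and 23.3, against 30.4 and 29.2. The log2 fold change was -1.83 (adjusted p 0.0019) in EBF1-dTAG_C and -1.06 (adjusted p 1.02e-30) in EBF1-dTAG_N in the authors' deposited tables.

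Farther along, a region 1.6 kb upstream of Ighv1-62-2, at 115448290 to 115448632, had no peak after dTAG-13 in EBF1-dTAG_C, against 7.8 and 10.7 with DMSO. In EBF1-dTAG_N it had 5.3 and 6.6, against 23.2 and 21.4. Its log2 fold change was -1.84 (adjusted p 0.00657) in EBF1-dTAG_C and -2.63 (adjusted p 3.6e-55) in EBF1-dTAG_N in the authors' deposited tables. A region 1.6 kb upstream of Ighv1-71, at 115744080 to 115744459, had 4.9 in one dTAG-13 library and no peak in the other, against 17.6 and 10.5 with DMSO, in EBF1-dTAG_C. In EBF1-dTAG_N it had 5.2 and 8.0, against 27.7 and 26.0. Its log2 fold change was -2.61 (adjusted p 0.00263) in EBF1-dTAG_C and -2.66 (adjusted p 9.46e-40) in EBF1-dTAG_N in the authors' deposited tables. A region 2.1 kb from Ighv1-11 had no peak in any dTAG-13 list, but its DMSO peaks were weak too. They read 5.2 in one EBF1-dTAG_C library with no peak in the other, and 4.5 and 6.9 in EBF1-dTAG_N. Its log2 fold changes were -2.21 (adjusted p 0.0366) in EBF1-dTAG_C and -2.43 (adjusted p 1.19e-15) in EBF1-dTAG_N in the authors' deposited tables. A region 1.4 kb from Ighv1-27 had a peak in 1 of the 4 dTAG-13 lists and in all 4 DMSO lists, with log2 fold changes of -2.11 (adjusted p 0.0122) in EBF1-dTAG_C and -1.002 (adjusted p 0.00014) in EBF1-dTAG_N in the authors' deposited tables.

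At the lncRNA starts shown above the changes were of unequal size. At Gm40900 the enrichments were 9.0 and 11.03 after dTAG-13, against 19.9 and 14.9 with DMSO, in EBF1-dTAG_C, and 10.5 and 13.1, against 26.3 and 28.7, in EBF1-dTAG_N. Its region fell by a log2 fold change of -1.20 (adjusted p 0.0398) in EBF1-dTAG_C and -1.70 (adjusted p 9.88e-16) in EBF1-dTAG_N in the authors' deposited tables. At Gm30996 the enrichments were 8.8 and 10.2, against 16.6 and 16.2 with DMSO, in EBF1-dTAG_C, and 12.4 and 11.8, against 16.6 and 15.2, in EBF1-dTAG_N. Its region fell by -0.66 (adjusted p 0.0401) in EBF1-dTAG_C and -0.70 (adjusted p 2.08e-14) in EBF1-dTAG_N as log2 fold changes of the authors' deposited tables. At Gm30948 the enrichments overlapped in EBF1-dTAG_C and lay close together in EBF1-dTAG_N, with 22.3 and 23.4, against 22.3 and 20.6 with DMSO, in EBF1-dTAG_C, and 19.2 and 22.2, against 23.8 and 24.1, in EBF1-dTAG_N. The log2 fold change was -0.43 (adjusted p 0.0701) in EBF1-dTAG_C, which did not pass, and -0.38 (adjusted p 6.77e-06) in EBF1-dTAG_N in the authors' deposited tables. Gm30996 and Gm30948 were named for their sequence after their values were seen. Gm40900 was shown for its sequence in the same way, but its EBF1-dTAG_N region was also named by rule, for its small adjusted p.

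**Figure D2:**
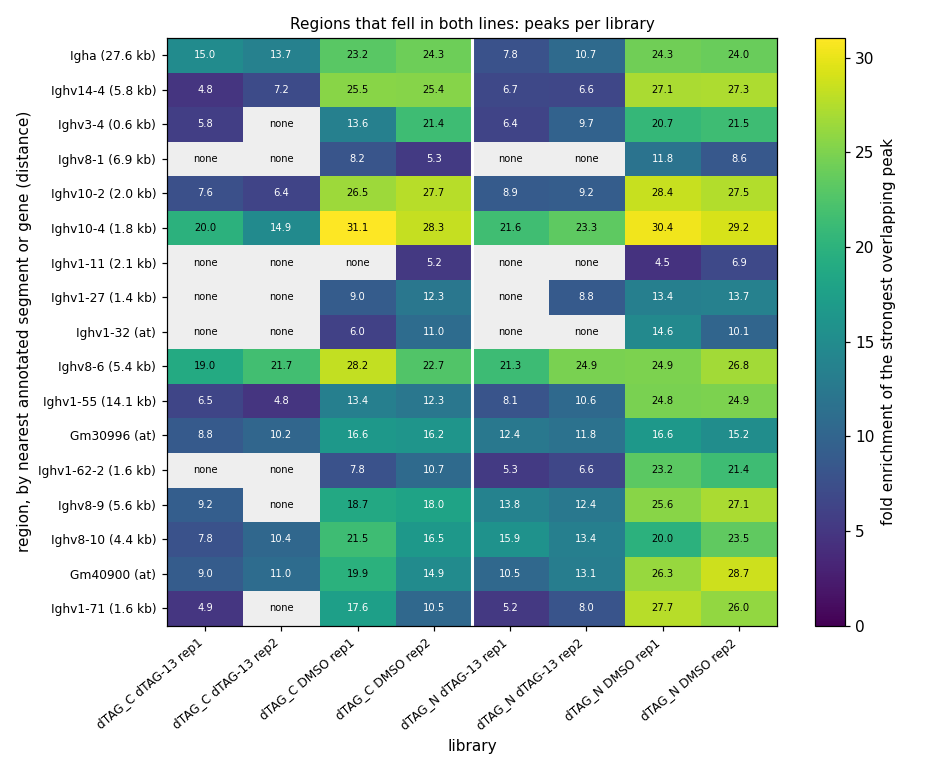
Fold enrichment over local background of the strongest peak in each of the 8 libraries (columns, dTAG-13 left of DMSO in each line) for the 17 regions that fell in both lines (rows, in order along the locus, by nearest segment or gene and distance in kb). Grey cells mark lists with no peak; at the region 5.8 kb from Ighv14-4 the dTAG-13 libraries read 4.8 to 7.2 and the DMSO libraries 25.4 to 27.3.

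Most falling regions of the V part lay between V segments. In the authors' deposited table of EBF1-dTAG_C, 16 of 90 regions away from any segment (by more than 250 bp) fell (17.8%). At a segment 1 of 69 fell (1.45%), against 6.62% of all regions. The counts of EBF1-dTAG_N were 31 of 99 away (31.3%) and 4 of 78 at a segment (5.13%), against 18.5% of all regions. Of the rises of EBF1-dTAG_N, 5 of 99 regions lay away (5.05%) and 16 of 78 at a segment (20.5%), the second share being near the 18.8% of all regions. With centred folds 4 rose away (4.04%) and 5 at a segment (6.41%), against 7.98% of all regions. The median log2 fold changes were 0.01 away and 0.24 at a segment in EBF1-dTAG_C, and -0.18 away and 0.24 at a segment in EBF1-dTAG_N, in the authors' deposited tables. This split is a description of counts, with no test. The fall at a segment in EBF1-dTAG_C was at Ighv1-32, a pseudogene, with no peak in any dTAG-13 list of either line. Examples of rises at a segment in the authors' deposited table of EBF1-dTAG_N were Ighv1-62-1 (log2 fold change 0.88, adjusted p 1.33e-05), Ighv1-54 (0.60, adjusted p 0.000112) and Ighv1-77 (0.73, adjusted p 0.00103), all called with centred folds too. They were chosen after their values were seen.

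**Figure D3:**
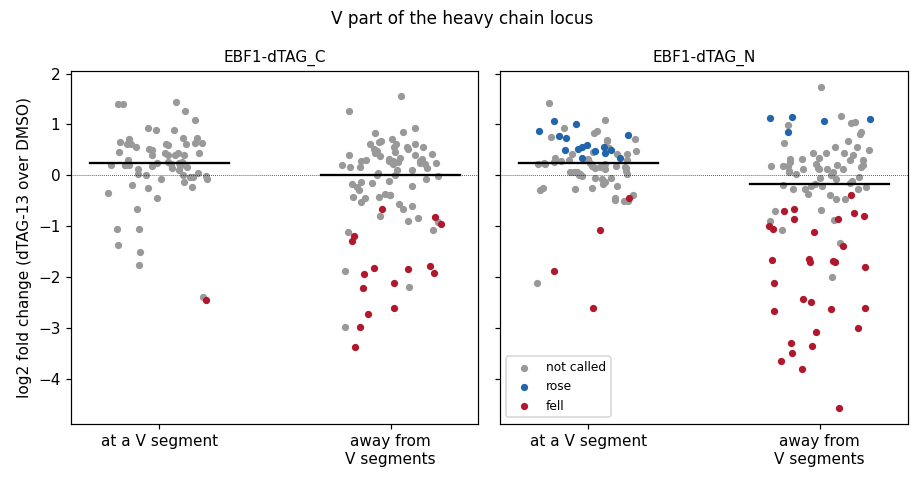
Log2 fold change (dTAG-13 over DMSO) of V part regions at a V segment (left of each panel) and away from V segments (right), for each line, with black bars at the medians. The red falling regions stand almost wholly in the columns away from V segments, 16 against 1 in EBF1-dTAG_C and 31 against 4 in EBF1-dTAG_N.

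Several falls lay 3.6 to 6.9 kb upstream of Ighv8 family segments, the family beside which PAIR elements were described. RefSeq lists 16 Ighv8 segments and pseudogenes in the locus. A region away from V segments lay within 10 kb on their upstream side at 12 of them in each line. In EBF1-dTAG_N 8 of these 13 regions fell and 0 rose in the authors' deposited table, 3.6 to 6.9 kb away, against 23 falls and 5 rises among 86 other V part regions away from segments. In EBF1-dTAG_C 4 of 13 fell, against 12 of 77. Of all regions 18.5% fell and 18.8% rose in EBF1-dTAG_N, and 6.62% fell in EBF1-dTAG_C. Upstream regions that lay at another V segment are not among the 13. One of these, at Ighv1-77 and 3.36 kb upstream of Ighv8-16, rose in EBF1-dTAG_N (log2 fold change 0.73, adjusted p 0.00103 in the authors' deposited table). The median log2 fold change of the 13 was -0.45 in EBF1-dTAG_C and -0.66 in EBF1-dTAG_N in the authors' deposited tables. This grouping was made after the values were seen and has no test. The strongest of them in the distal part lay 5.6 kb upstream of Ighv8-9, at 115474276 to 115474620. Its enrichments were 9.2 and no peak after dTAG-13, against 18.7 and 17.995 with DMSO, in EBF1-dTAG_C, and 13.8 and 12.4, against 25.6 and 27.1, in EBF1-dTAG_N. It fell by a log2 fold change of -1.77 (adjusted p 0.00273) in EBF1-dTAG_C and -1.66 (adjusted p 1.14e-23) in EBF1-dTAG_N in the authors' deposited tables. The region 5.4 kb upstream of Ighv8-6, the segment whose own region was not called, fell by -0.81 (adjusted p 0.00756) in EBF1-dTAG_C and -0.85 (adjusted p 6.02e-19) in EBF1-dTAG_N as log2 fold changes of the authors' deposited tables. The region 4.4 kb upstream of Ighv8-10 fell by -0.96 (adjusted p 0.0366) and -0.73 (adjusted p 1.00e-07) in the same lines and tables, the authors' deposited tables. The region at Gm30948 is one of the 13, 3.9 kb upstream of Ighv8-7. Regions upstream of Ighv8-5, Ighv8-11 and Ighv8-13 fell in EBF1-dTAG_N, by -1.10, -0.85 and -0.66 on the log2 scale, and were not called in EBF1-dTAG_C in the authors' deposited tables. Not all such regions fell: those upstream of Ighv8-8 had log2 fold changes of 0.04 in EBF1-dTAG_C and -0.15 in EBF1-dTAG_N (adjusted p 0.973 and 0.477) in the authors' deposited tables. Those upstream of Ighv8-3, Ighv8-12 and Ighv8-14 (4.8, 7.6 and 4.0 kb away in EBF1-dTAG_N) were not called in either line.

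Every paired EBF1-dTAG_C fall was also called in EBF1-dTAG_N. Of 165 regions paired by overlap, 17 fell in both lines, which was 100% of the 17 paired EBF1-dTAG_C falls and 58.6% of the 29 paired EBF1-dTAG_N falls in the authors' deposited tables. Over all 42801 paired regions these shares were 98.9% and 47.3%. The log2 fold changes of the lines had a Pearson r of 0.79 and a Spearman rho of 0.54 across the 165 regions, as a description across regions of the same libraries, against 0.84 and 0.64 over all pairs. Tested directly (approximate normal test, Benjamini-Hochberg over all paired regions), the fold differed between the lines at 0 of 165 regions, and 9 had an unadjusted p under 0.05 (5.45%). Over all pairs 67 were called (0.157%), and 2745 had an unadjusted p under 0.05 (6.41%). A missed threshold does not show that the lines respond alike.

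**Figure D4:**
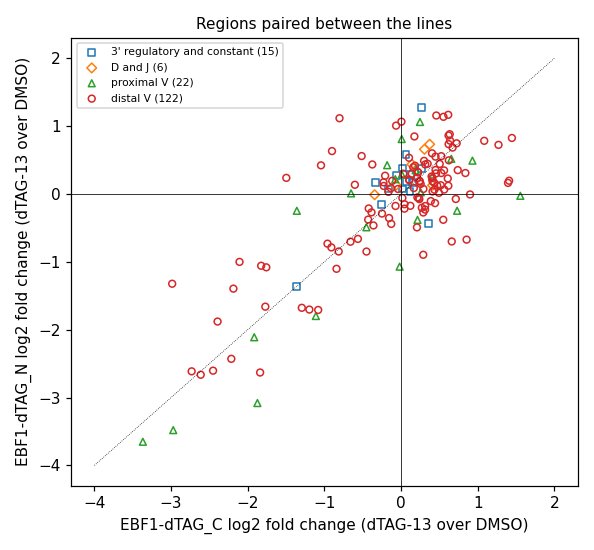
Log2 fold change (dTAG-13 over DMSO) in EBF1-dTAG_N (vertical) against EBF1-dTAG_C (horizontal) for the 165 paired regions, by part, with a dotted line of equality. The regions that fell deeply lie at the lower left in both lines, and the rest scatter around 0 with Pearson r 0.79 in all.

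The mean abundance of the V part regions was higher in EBF1-dTAG_N, with dTAG-13 and DMSO libraries averaged together. The mean abundance of the paired regions over all libraries of a line (EBF1-dTAG_N minus EBF1-dTAG_C, in log2 CPM of the authors' deposited tables) had a median of 0.60 in the distal V part, with 101 of 122 regions higher in EBF1-dTAG_N. The median was 0.45 in the proximal V part, -0.19 in the D and J part and -0.60 in the 3' regulatory and constant part, where 3 of 15 were higher in EBF1-dTAG_N. Over all paired regions it was -0.02, and it was -0.04 in the 1 Mb on either side of the locus. The kappa locus had a median of 0.35, with 141 of 198 regions higher in EBF1-dTAG_N (71.2%), against 72.7% of the paired heavy chain regions. The tables are normalised separately and give no spread, so this difference has no test.

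**Figure D5:**
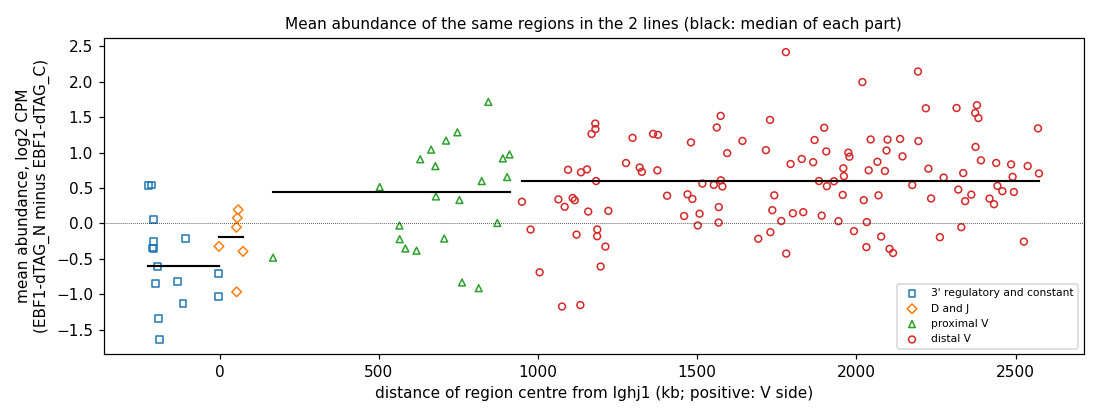
Mean abundance of paired regions in EBF1-dTAG_N minus that in EBF1-dTAG_C (log2 CPM of the authors' tables) against distance from Ighj1 in kb, with black lines at the median of each part. Most distal V regions lie above 0 (median 0.60) and most regions of the 3' regulatory and constant part below it (median -0.60).

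Fewer peaks were called in the locus after dTAG-13, but not as a share of the lists. The EBF1-dTAG_C libraries had 115 and 126 peaks after dTAG-13, against 134 and 143 with DMSO. The EBF1-dTAG_N libraries had 146 and 151 after dTAG-13, against 156 and 160 with DMSO. The groups did not overlap in either line, and the mean differences were -18 and -9.5 peaks (exact permutation test, two-sided, p = 0.3333 for each line, the smallest that 2 against 2 allows). Permuting labels inside each line and pooling the lines, the exact permutation p was 0.05556, the smallest that 36 arrangements allow. As a share of the list the locus had 0.334% and 0.368% after dTAG-13, against 0.331% and 0.339% with DMSO, in EBF1-dTAG_C, and 0.407% and 0.380%, against 0.375% and 0.398%, in EBF1-dTAG_N (exact permutation p = 0.278 over both lines). Of the 18 falling regions of EBF1-dTAG_C, 4 had peaks in both DMSO libraries of the line and none after dTAG-13. Of the 36 of EBF1-dTAG_N, 9 did. Over all falling regions these shares were higher, at 54.0% in EBF1-dTAG_C and 45.7% in EBF1-dTAG_N. The share is counted on the same libraries that gave the calls and is no separate evidence. Without one dTAG-13 library the EBF1-dTAG_C count of such regions was 7 (without replicate 1) and 4 (without replicate 2).

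Genes of the recombination machinery and of the factors that act on the locus were read from a list of 30, of which 29 had a region within 100 kb. In EBF1-dTAG_C 12 of these genes had at least 1 falling region and 0 had a rising one, with 19 of 235 regions falling in the authors' deposited table (8.09%, against 6.62% of all regions). The EBF1-dTAG_N table had 21 genes with a falling and 22 with a rising region, over 60 and 56 of 251 regions (23.9% and 22.3%, against 18.5% and 18.8% of all regions). These shares were near the background. A fall at such a region does not say what the gene's expression did, which was not measured. Dntt, named after its value was seen, which encodes the polymerase that adds bases at the joints, had a region at chromosome 19, 41038232 to 41038493, that fell by -1.53 on the log2 scale (adjusted p 0.0186) in the authors' deposited table of EBF1-dTAG_C, where the other 7 of its 8 regions were not called. In EBF1-dTAG_N its counterpart fell by -2.19 on the log2 scale (adjusted p 1.04e-16), and of the 7 Dntt regions 2 fell and 4 rose in the authors' deposited table.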

How the data were processed

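ATAC-seq was measured in 8 libraries, grouped by line and treatment from the labels. The titles call the controls 0 h and the treatment label gives 6 h of DMSO, which was followed. The build was GRCm38, and per the submitters' processing notes the tools were edgeR 3.32.0, MACS2 2.2.7.1, deepTools 3.3.2, SAMtools 1.10 and Bowtie2 2.3.5.1, with no roles stated. Read filtering, Tn5 shifting and library scaling were not given in the sources used here. Filters on multi-mapped reads could change values at near-identical V segments.

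The authors deposited 1 peak list per library, with a score, a fold enrichment (a ratio and signal over the local background) and −log10 p-values and q-values, used to describe and filter peaks. The authors deposited 1 table per line, of log2 fold changes, mean log2 CPM, an F score, p-values and adjusted p-values, with no values per library, so the region test could not be refitted. A positive fold was read as higher after dTAG-13: of locus regions with negative called folds, 4 in EBF1-dTAG_C and 9 in EBF1-dTAG_N had peaks in the DMSO lists alone and 0 in the dTAG-13 lists alone. Repeated entries (8 and 12) were counted once. The F values had 11.2 denominator degrees of freedom for EBF1-dTAG_C and 110386 for EBF1-dTAG_N, which means that regions share one spread in EBF1-dTAG_N.

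Regions were called at a deposited adjusted p under 0.05 (Benjamini-Hochberg, all regions). The approximate standard error was the absolute log2 fold change divided by root F, and was used for centred folds and for an approximate normal test of the line difference, both tested on simulated data. Python 3.11.15 with pandas 2.3.3, scipy 1.17.1 and Biopython 1.88 was used. Regions named by rule were all of the D and J part, up to 12 of the 3' part, the 8 smallest adjusted p per line in each V part, and the most abundant region of each part. Members and lists were chosen with earlier results of these data known. Peak names in the EBF1-dTAG_C lists carry other replicate numbers than the labels, and the labels do not tie a number to a shared batch, so numbers do not pair samples.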

Additional observations from a re-analysis of the deposited data

How the results depend on the processing

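The region tests could not be refitted without each library, because per-library values are not in the tables, and only peak counts were recomputed. Falls kept within 1.5 times of the counts above under all alternatives except in EBF1-dTAG_N when regions below the median abundance were left out, with 22 falls. Rises in EBF1-dTAG_N were 11 with centred folds, 7 with a log2 fold change of 1 or more in size and 15 with the EBF1-dTAG_C degrees of freedom applied. In EBF1-dTAG_C wider bounds of the locus gave 1 rise. With the same number of best peaks from each list, the difference in peaks in the locus reversed, to 2.5 in EBF1-dTAG_C and 4 in EBF1-dTAG_N; the cause was not tested. Without each replicate in turn the difference ranged from -23.5 to -12.5 in EBF1-dTAG_C and from -12 to -7 in EBF1-dTAG_N. Pairing by replicate number (replicate block) cannot move the mean differences of -18 and -9.5. The pair differences were -19 and -17 in EBF1-dTAG_C by number, and -28 and -8 in a crossed pairing, added after seeing the data because same-numbered libraries deviated with r = -0.20 (-0.004 in EBF1-dTAG_N). The choices added after seeing the data, the V split at Ighv1-2 and paddings of 0 and 1000 bp, moved only the falls at a V segment past 1.5 times, to 2 in EBF1-dTAG_C and 7 in EBF1-dTAG_N at 1000 bp. Centring moved 3 of the 60 regions of the named set from called to not called, and the other degrees of freedom 3 of 24, all of them in the D and J part. Read depth is unknown, so weak regions with a peak in few lists limit what can be said of them.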
